A study of Homo sapiens with 17 samples.

Results

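CREB1 peaks that were present in both prostate cancer lines and shared no base with a FOXA1 peak numbered 10659, of 27629 CREB1 peaks in LNCaP-abl cells (38.6%; Wilson 95% interval 38.0% to 39.2%). They were chosen from 3 peak lists. A member is a CREB1 peak of LNCaP-abl (abl below) that shares at least 1 bp with a CREB1 peak of LNCaP and no bp with any of the 79242 FOXA1 peaks of abl. LNCaP is an established human prostate cancer line whose growth depends on androgen, and abl was derived from it and no longer needs androgen to grow. The abl cells, at passages 62 to 64, were grown with 10% serum from which charcoal had removed most steroid hormone, and the LNCaP cells, at passages 32 to 34, with 10% untreated serum. For RNA sequencing, each line received an siRNA against CREB1 (siCREB1), an siRNA against FOXA1 (siFOXA1) or a control siRNA (siControl) at 40 nM for 3 days in 5% charcoal-stripped serum, with 2 libraries for each of the 6 groups. Of the 17 samples, 3 are chromatin immunoprecipitation (ChIP-seq) samples with 1 peak list each and 6 are RNA samples. The other 8 are ChIP-seq samples of abl cells given siControl, siCREB1 or siFOXA1, and were not analysed here. A treatment serum of 5% is also listed for the 3 samples with a peak list. FOXA1 peaks of abl alone were used, so "without FOXA1" describes abl and says nothing of FOXA1 in LNCaP.

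CREB1 carries signals of cyclic AMP to genes. It sits as a dimer on the cyclic-AMP response element (CRE), a palindrome that is often found close to gene starts, and it recruits the co-activators CBP and p300 once protein kinase A or related kinases have phosphorylated it. FOXA1 is a pioneer factor: it binds forkhead motifs in closed chromatin, mostly at enhancers far from genes, and in prostate cells it opens many of the sites that the androgen receptor uses.

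The element itself is shown at genes that are not members of the site list, because the peaks lie on hg19 and no sequence of that build was read. The stretches below are 48 bases of the promoters of 6 genes of a list of known CREB1 targets, 5′ to 3′ on the strand of the gene, from RefSeq on GRCh38.p14. Capitals mark the full CRE, TGACGTCA, which reads the same on both strands.

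JUND: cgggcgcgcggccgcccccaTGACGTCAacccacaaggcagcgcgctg
CREM: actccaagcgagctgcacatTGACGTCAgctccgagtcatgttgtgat
DUSP1: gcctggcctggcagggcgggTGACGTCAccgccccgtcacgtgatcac
CCNA2: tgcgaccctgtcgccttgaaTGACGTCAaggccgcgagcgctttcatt
VGF: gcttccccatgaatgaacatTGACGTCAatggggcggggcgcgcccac
PRKAR1A: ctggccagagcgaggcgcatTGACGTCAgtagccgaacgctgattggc

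The element begins 49 bases before the gene start in PRKAR1A, 50 in CREM, 79 in VGF, 81 in CCNA2, 125 in DUSP1 and 200 in JUND. The letters were searched in the window of 250 bases before to 50 bases after the start. They stand in 649 of 35116 RefSeq promoters of that length (1.85%). Of the 43 target genes with enough reads to be tested, 39 had a promoter sequence (90.7%), and these 6 held the full element. Whether any of these promoters holds a member peak was not examined, since builds were not converted.

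Over the whole list, sites shared between the lines were more often without FOXA1 than sites of abl alone; at like score, given further on, the gap was smaller. A CREB1 peak of LNCaP met 18433 abl peaks (66.7%), and 57.8% of them (57.1% to 58.5%) shared no base with FOXA1, against 41.2% (40.2% to 42.2%) of the 9196 peaks found in abl alone. The other classes were 7774 shared sites with FOXA1, 5407 abl-only sites with FOXA1 and 3789 abl-only sites without it. The intervals cover counting only and treat peaks as separate draws. Each list comes from 1 sample, so no spread between replicates is known, and since the overlaps chose the members the shares are given with no test.

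Members held most of the high-scoring CREB1 peaks of abl. The authors' score, which here only ranks peaks within a list, had a median of 424.97 at members, with an interquartile range of 209.37 to 848.06. It was 266.68 at shared sites with FOXA1 and 110.9 in each of the abl-only classes, near the bottom of the list, where the lowest member scored 80.1. Members were 59 of the 100 highest-scoring CREB1 peaks and 615 of the 1000 highest. When the list was cut into deciles by score, members were 9.95% of the peaks in decile 1, the lowest, 30.5% in decile 5, 57.4% in decile 7, 67.2% in decile 9 and 63.4% in decile 10.

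**Figure D1:**
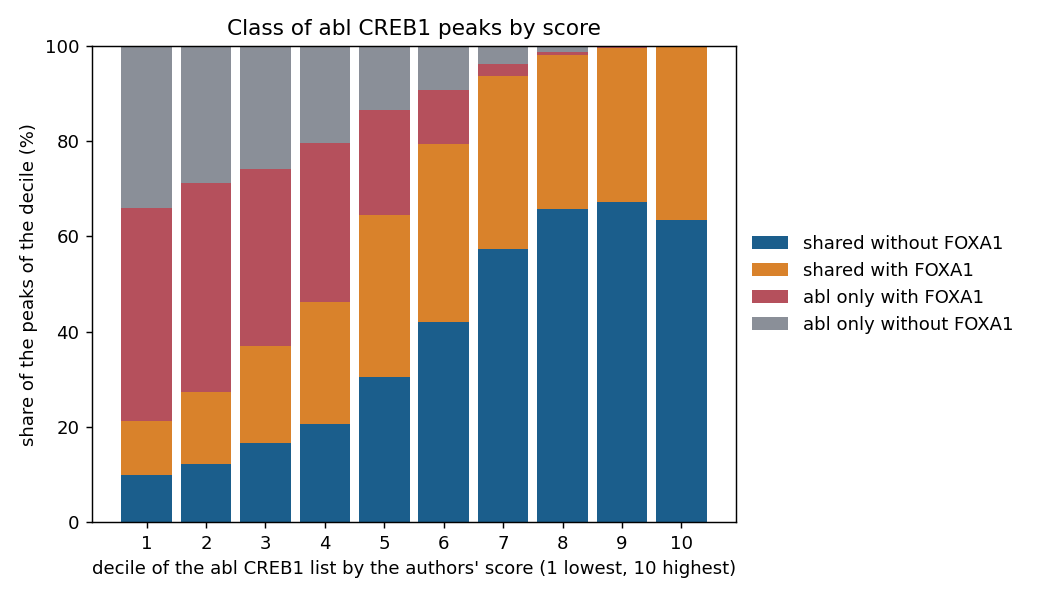
Share of the 4 classes of abl CREB1 peaks (y axis, percent) in each decile of the list by the authors' score (x axis, lowest to highest). Members, the lowest block of each bar, make up 9.95% of decile 1 and 67.2% of decile 9, while abl-only peaks nearly vanish above decile 7.

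The gain had 2 parts. Nearly all high-scoring peaks were shared: decile 10 held 1752 members, 1006 shared sites with FOXA1, and 1 and 4 abl-only sites with and without FOXA1. Within shared sites the portion without FOXA1 also differed with score. It lay between 44.6% and 47.3% in deciles 1 to 5, and was 53.0% in decile 6 and 61.2% in decile 7. It was 67.0%, 67.4% and 63.5% in deciles 8, 9 and 10, so it did not keep growing to the top of the list. Among abl-only sites the portion without FOXA1 was 43.2% in decile 1, 37.8% in decile 5, 44.6% in decile 6, 58.6% in decile 7 and 68.4% in decile 8, which held 18 abl-only sites with FOXA1 and 39 without it. The shared sites thus led by less than over the whole list in deciles 1 to 7 and did not lead in decile 8.

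Members were also the widest class. Their median width was 777 bp (interquartile range 595 to 1034 bp), against 678 bp at shared sites with FOXA1, 536 bp at abl-only sites with FOXA1 and 504 bp at abl-only sites without it. Width moved with score (Spearman's rho 0.688 over the 10659 members, which all come from 1 library). At like score the shared classes were close in width: in decile 5 the medians were 576 bp for members and 593 bp for shared sites with FOXA1, in decile 8 they were 858 and 848 bp, and in decile 10 they were 1062 and 1126 bp. Members had the smaller median of the shared classes in 8 of the 10 deciles, although theirs was the larger over the whole list. The members covered 9111747 bp in all, and 101 of them were over 2 kb wide.

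**Figure D2:**
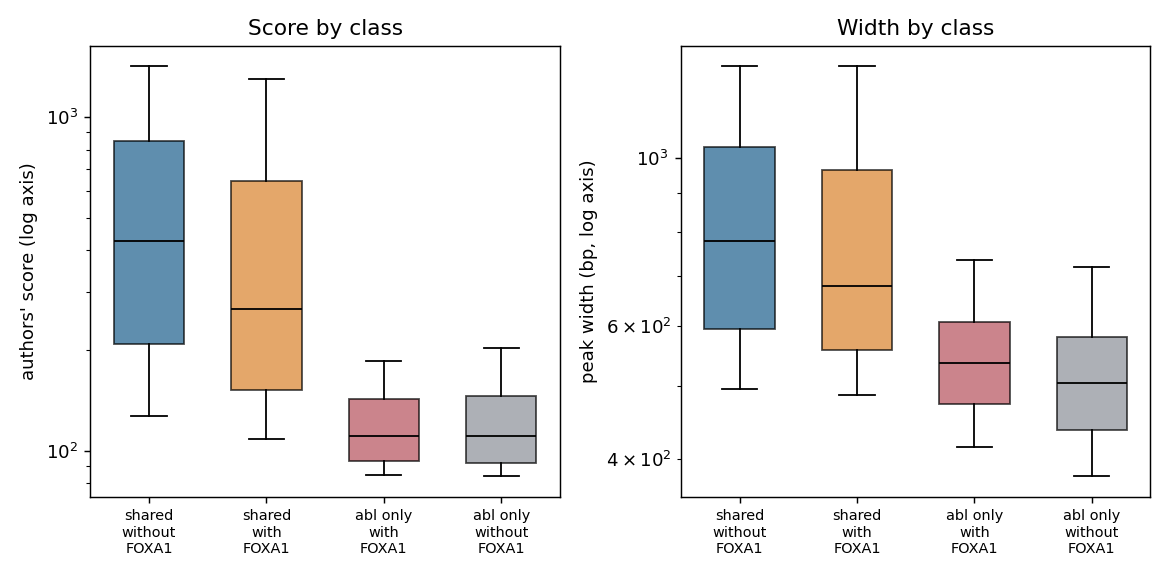
Authors' score (left) and width in bp (right) of the 4 classes of abl CREB1 peaks, both on log axes. Boxes span the quartiles with the median as a line and whiskers the 10th to the 90th percentile; members have the highest median score, 424.97, and the highest median width, 777 bp.

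The 10 members with the highest score are described here (hg19). The highest score at members in abl, 3233.06, was also the highest at their LNCaP peaks. Whether scores reach a ceiling at the top was not tested, so these 10 need not be the sites with the strongest binding. The first was chr12:132628351-132629434, 1084 bp wide, with the highest score of the whole abl list, 3233.06. Its LNCaP peak ranked 55 of 21991 by score, and the closest FOXA1 peak lay 33980 bases away. The next was chr5:5421966-5423135, ranked 4 in abl and 67 in LNCaP, with FOXA1 926 bases away. It was followed by chr1:9488670-9489543, ranked 5 in abl and 3 in LNCaP, which lay wholly inside its LNCaP peak and 5645 bases from FOXA1. These leading sites therefore differed widely in their distance to FOXA1, while all stood near the top of both lists.

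Of the remaining 7, chr17:7154831-7156312 was the widest at 1482 bp and had FOXA1 at 1823 bases. FOXA1 lay 4522 bases from chr14:105218653-105219924 and 2604 bases from chr11:72145049-72145984. The sites chr20:44600190-44601566, chr3:16305926-16307159 and chr12:117256766-117257764 lay 22555, 27711 and 12181 bases from FOXA1. The narrowest and most remote of them was chr7:45808326-45808896, with 571 bp and FOXA1 at 61570 bases. In each of the 10 the LNCaP peak ranked 89 or better, and at least 85.6% of the abl peak was shared with it. No gene is named at these sites, because no annotation of hg19 was used here.

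Values just inside and just outside the rule lay close together. The member nearest to FOXA1, chr3:196438898-196439820, touched a FOXA1 peak with 0 bases between them, and 14 members had FOXA1 within 10 bases. Just outside, chr12:860118-860841 shared 1 bp with FOXA1, and 18 shared sites shared at most 10 bp with it. Within 100 bases of the border were 167 members and, on the other side, 130 shared sites. On the LNCaP side, 2 members had fewer than 10 bp in common with their LNCaP peak. The least was 3 bp, at chr3:49590800-49591315, while the abl-only site chr9:132145767-132146314 missed a LNCaP peak by 3 bases.

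The rule required members to overlap a LNCaP peak by at least 1 bp, so only the extent of the overlap is described here. A single LNCaP peak met 10525 members (98.7%), 133 members met 2 and 1 met 3. The median member had 88.8% of its length in common with its LNCaP peak, and 97.5% of members had at least 50% of it. Midpoints were a median of 35.5 bases apart, within 100 bases at 83.1% of members and over 500 bases apart at 47 members. Shared sites with FOXA1 were much alike, with medians of 87.9% of the length in common and 34.5 bases between midpoints. The members matched 10636 LNCaP peaks, 48.4% of the 21991 of that line.

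The order of the members by score was much the same in abl and in LNCaP. Spearman's rho was 0.909 over the 10659 members and 0.854 over the 7774 shared sites with FOXA1, given as descriptions with no p, since the points share 1 pair of libraries. Of the members in the highest quartile of the abl list, 3456 (76.0%) had their LNCaP peak in the highest quartile of the LNCaP list and 6 had it in the lowest. Widths ran together too (rho 0.812). The abl peak was the wider at 74.3% of members (73.4% to 75.1%) and at 76.2% (75.2% to 77.1%) of shared sites with FOXA1, by a median of 71 bp in either class. Median widths were 777 bp in abl and 676 bp in LNCaP at members. Width depends on the depth of each library, which the lists do not give, so a difference in binding and a difference in depth cannot be told apart.

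**Figure D3:**
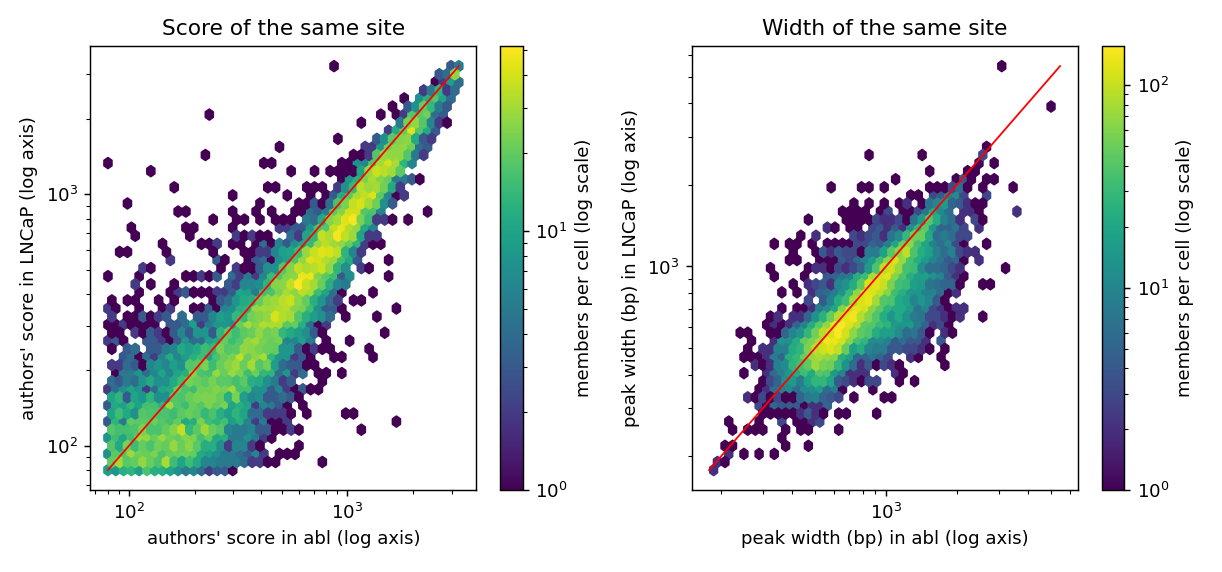
Authors' score (left) and width in bp (right) of the 10659 members in abl (x axis) and of the matched peak in LNCaP (y axis), log axes, with colour for the number of members and a red line where both are equal. Members rank alike in both panels (rho 0.909 and 0.812), with most widths below the line. The median score is 424.97 in abl and 309.45 in LNCaP. Scores only rank peaks within a list, so the line in the left panel is no measure of equal binding.

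A few members stood in opposite places of the lists. At chrX:152485855-152486393 the abl score was 787.27, above 83.7% of the abl list, and the LNCaP score 87.85, above 7.42% of the LNCaP list. At chr20:33146146-33146563 the abl score was 80.7, above 0.653% of the list, and the LNCaP score 1336.58, above 93.8%. These are the most discordant member in each direction, chosen after their values were seen, and the lists differ in length, so they are places in a list and not measured changes.

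FOXA1 was close to many members without sharing a base with them. The median distance to a FOXA1 peak was 9704 bases, with an interquartile range of 2985 to 24056, against 10133 bases at abl-only sites without FOXA1. A FOXA1 peak lay within 1 kb of 11.9% of members (11.3% to 12.6%) and 10.1% (9.16% to 11.1%) of abl-only sites without FOXA1. Within 10 kb the shares were 50.8% and 49.7%. No FOXA1 peak lay within 100 kb of 241 members (2.26%). Outside the sex chromosomes the most remote member was chr9:44993115-44993325, 922246 bases from FOXA1.

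The FOXA1 peaks in the neighbourhood of members were denser at 1 to 2 kb than farther away. At 1 to 2 kb between midpoints there were 0.0535 FOXA1 peaks per kb per member, 1.71 times the 0.0313 at 20 to 50 kb. The same ratio was 1.32 at abl-only sites without FOXA1, 1.06 at shared sites with FOXA1 and 0.991 at abl-only sites with FOXA1. The classes with FOXA1 hold a FOXA1 peak at their centre by the rule, and FOXA1 peaks around other FOXA1 peaks had 0.0398 per kb at 1 to 2 kb and 0.039 at 20 to 50 kb, so the contrast with these classes is not independent of how the classes were chosen. Other abl CREB1 peaks were also denser around members at 1 to 2 kb, with 0.0281 per kb against 0.0229 at 20 to 50 kb. Beyond 2 kb the density of FOXA1 peaks around members fell away, to 0.0384 at 2 to 3 kb and 0.0331 at 5 to 10 kb. Under 1 kb the rule itself removes FOXA1 from members, so the 0.0356 at 0.5 to 1 kb is no measure of spacing. The ratio held across the members by score, with 0.0448 against 0.0294 peaks per kb in the lowest quartile of members and 0.0565 against 0.0317 in the highest.

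**Figure D4:**
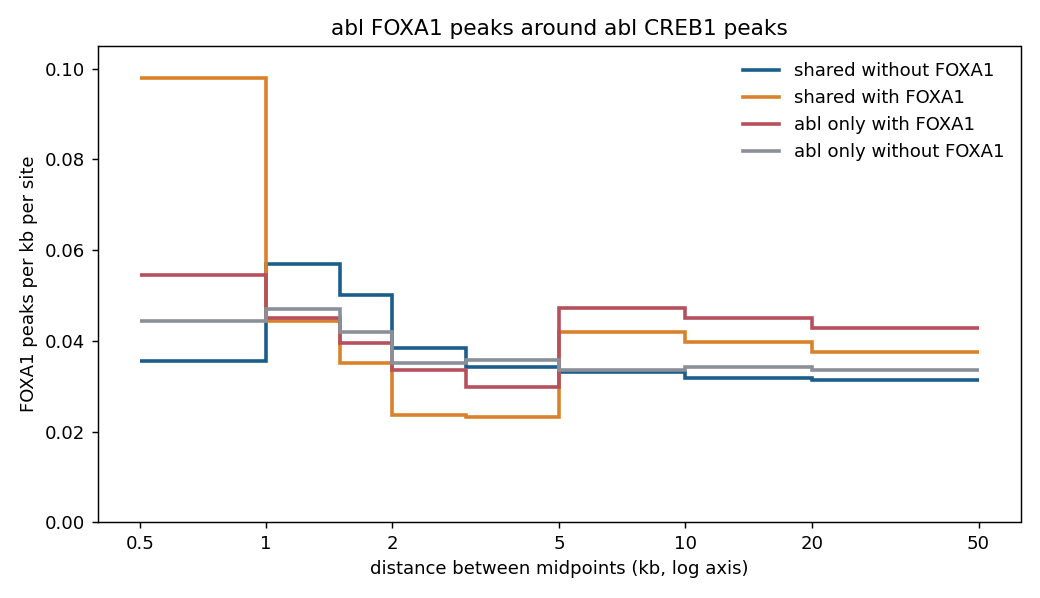
abl FOXA1 peaks per kb and site (y axis) against the distance between midpoints in kb (x axis, log scale) for the 4 classes of abl CREB1 peaks. Members reach 0.0569 at 1 to 1.5 kb and level off near 0.0313 at 20 to 50 kb, whereas both classes with FOXA1 drop to 0.0231 and 0.0298 at 3 to 5 kb and step up beyond 5 kb.

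Around sites that carry FOXA1 the density dipped at 3 to 5 kb, to 0.0231 at shared and 0.0298 at abl-only sites, and stepped up beyond 5 kb to 0.0419 and 0.0473. Members had no such dip, with 0.0343 at 3 to 5 kb. FOXA1 peaks around other FOXA1 peaks showed the same dip, 0.0268 at 3 to 5 kb and 0.0431 at 5 to 10 kb, and so did abl CREB1 peaks around members, 0.0126 and 0.0223. The dip was thus seen around peaks of the list itself and at a round distance; how peak calling bears on it was not tested.

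Over a wider window, members had the lowest mean count of FOXA1 peaks and the highest mean count of CREB1 peaks of the classes. Between 2 and 50 kb a member had a mean of 3.06 FOXA1 peaks, against 3.25 at abl-only sites without FOXA1, 3.61 at shared sites with FOXA1 and 4.13 at abl-only sites with FOXA1. The rule chose the classes by FOXA1, so the contrast with those that carry it is not independent of that choice. The classes without FOXA1 were close: the median was 3 in both, and 10.4% of members and 9.29% of abl-only sites had none. The mean number of other abl CREB1 peaks in that window was 2.13 for members and 1.87, 1.85 and 1.5 in the same order of classes. Of the 2.13 around a member, 1.06 were members themselves. The 1270 FOXA1 peaks nearest to a member and within 1 kb of it, none of which shares a base with it by the rule, had a median score of 180.89. That is close to the 192.65 of FOXA1 peaks on no CREB1 site and the 207.7 of all FOXA1 peaks, and below the 298.83 on shared and 444.83 on abl-only CREB1 sites.

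Members came in runs along the chromosomes in places. With gaps of at most 10 kb, 1859 members (17.4%) stood in runs: 717 pairs, 95 triples and 32 runs of 4 or more. The 3 runs with 6 or more members all lay on chromosome 19. At chr19:49618071-49661398, a stretch of 43328 bases, 7 members were all the abl CREB1 peaks, with scores of 101.24 to 475.78 and no FOXA1 peak. At chr19:2032148-2070089, 7 of 8 CREB1 peaks were members, with scores of 86.64 to 1771.32, and 3 FOXA1 peaks lay between them. At chr19:56135326-56167326, 6 members were all the CREB1 peaks, with 1 FOXA1 peak. With gaps of at most 1 kb there were 218 pairs and 2 triples, and 23 of the 222 neighbours shared 1 LNCaP peak, so some neighbours are parts of what was 1 peak in LNCaP.

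Chromosomes differed in how many of their CREB1 peaks were members. The highest shares were 62.1% on chromosome 19 (872 of 1404 peaks; 59.5% to 64.6%) and 60.6% on X (295 of 487; 56.2% to 64.8%). The lowest were 26.6% on chromosome 8 (24.3% to 29.0%) and 27.3% on chromosome 4 (24.9% to 29.9%). Chromosome 19 held 8.18% of members, 5.08% of all abl CREB1 peaks and 1.15% of FOXA1 peaks.

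The leading chromosomes differed in the number of FOXA1 peaks for each CREB1 peak. This ratio depends on both counts and does not measure how densely FOXA1 peaks lie along a chromosome. Chromosome 19 had 0.647 FOXA1 peaks for each CREB1 peak, the fewest of any chromosome, and members there lay a median of 21210 bases from FOXA1. X had 4.62, the most of any, with 487 CREB1 peaks (1.76% of the list) and 2251 FOXA1 peaks (2.84%). Of the shared sites on X, 81.0% were without FOXA1, and its members lay a median of 17388 bases from FOXA1. Chromosome 4 had a like ratio of 4.59, from 1214 CREB1 peaks and 5577 FOXA1 peaks. There 45.5% of shared sites were without FOXA1, and members lay a median of 6884 bases from FOXA1. Length, copy number and gene density of these chromosomes were not measured here, and their part in the shares was not tested.

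**Figure D5:**
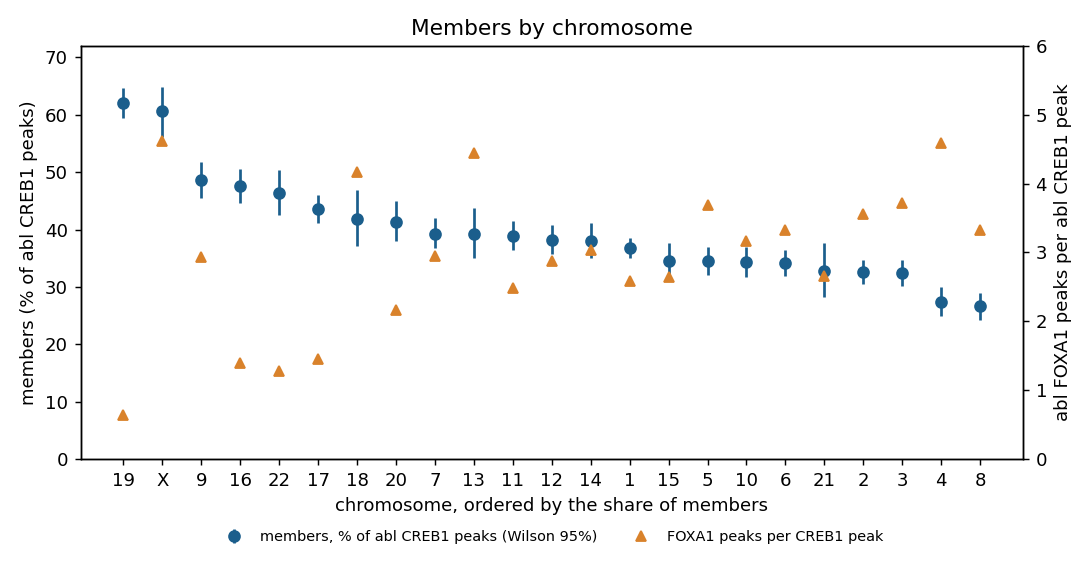
Members as a percentage of abl CREB1 peaks on 23 chromosomes (left axis, circles with Wilson 95% intervals) and abl FOXA1 peaks per abl CREB1 peak (right axis, triangles), with chromosomes ordered by the share of members. Chromosomes 19 and X lead with 62.1% and 60.6%. They have the lowest and the highest number of FOXA1 peaks per CREB1 peak, 0.647 and 4.62, a ratio that depends on both counts.

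The RNA libraries show how much of each factor was present and what its knockdown did to the listed CREB1 targets, with no link to single sites. Levels are CPM, the counts of a gene relative to its library's TMM-normalised size; reads in genes ranged from 9092597 to 37314039 per library. Changes are log2 fold changes with a standard error (SE) and Benjamini-Hochberg adjusted p from edgeR's quasi-likelihood test, called at 0.05. Libraries are not stated to be separate cultures, so p measures the spread between libraries, which may be technical. All 10 luminal markers were tested, with summed levels of 2800 to 4590 CPM per library. Markers of other cells summed to 13.7 to 102 CPM, with 6 of 12 too low to test. Of the 6 tested, only 1 stayed under 1 CPM in every library.

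CREB1 fell in both lines after siCREB1. It measured 46.3 and 43.9 CPM in abl siCREB1 libraries, against 78.8 and 79.7 in abl siControl, a log2 change of -0.81 (SE 0.10, adjusted p = 9.1e-06). In LNCaP it measured 38.7 and 29.8 CPM after siCREB1, against 81.0 and 85.3 in siControl (-1.28, SE 0.10, adjusted p = 5.59e-07). The groups did not overlap in either line. Under siControl, CREB1 was at 79.2 ± 0.634 CPM in abl and 83.2 ± 3.09 CPM in LNCaP (SD, n = 2 libraries each), a log2 difference of -0.07 (SE 0.09, edgeR adjusted p = 0.541), in a comparison that called 63.6% of all genes. The effect of siCREB1 differed between the lines at 25.5% of all genes.

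FOXA1 mRNA fell after siFOXA1 to 196 and 229 CPM in abl, against 556 and 504 in siControl (-1.32, SE 0.08, adjusted p = 2.04e-08). In LNCaP siFOXA1 left 215 and 211 CPM, against 799 and 695 in siControl (-1.81, SE 0.09, adjusted p = 2.15e-09). Under siControl it was lower in abl than in LNCaP, at 530.0 ± 37.0 and 747 ± 73.2 CPM (SD, n = 2 each; -0.49, SE 0.08, edgeR adjusted p = 0.000129). Fewer FOXA1-expressing cells and less RNA per cell cannot be told apart in bulk libraries. CREB1 also fell after siFOXA1, by 0.44 on the log2 scale in each line (SE 0.09; adjusted p = 0.00114 in abl and 0.00126 in LNCaP), with 60.4 and 56.1 CPM in abl and 61.4 and 60.7 CPM in LNCaP.

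The listed CREB1 targets moved in both directions. In abl, 26 of 43 tested targets were called after siCREB1, 12 higher and 14 lower, a share of 60.5% where 51.2% of all tested genes were called, 27.5% higher and 23.7% lower. Their median log2 change was -0.29, against 0.03 over all genes. In LNCaP, 20 were called, 9 higher and 11 lower, where 37.6% of all genes were called, 17.8% higher and 19.8% lower, and the median was -0.05. Without the first LNCaP siCREB1 library 13 of them were called, and the count over all genes also fell, to 4403 against 5846 with every library. After siFOXA1, 23 targets were called in abl (10 higher, 13 lower), where 56.5% of all genes were called, 29.9% higher and 26.5% lower, and 26 in LNCaP (14 higher, 12 lower), where 49.8% were called, 24.4% higher and 25.5% lower. Both knockdowns of a line share their siControl libraries. Of the CREB and ATF proteins and the co-activators they recruit, 20 of 21 tested genes were called in abl after siCREB1 (4 higher, 16 lower) and 13 in LNCaP (5 higher, 8 lower). After siFOXA1, 18 of them were called in abl (2 higher, 16 lower) and 15 in LNCaP (5 higher, 10 lower).

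The 6 genes whose promoters are printed above went different ways after siCREB1. PRKAR1A, a regulatory subunit of protein kinase A, fell in both lines: 222 and 223 CPM in abl siCREB1 against 328 and 326 in siControl (-0.56, SE 0.07, adjusted p = 1.06e-05), and 304 and 268 CPM in LNCaP siCREB1 against 392 and 413 (-0.49, SE 0.07, adjusted p = 7.58e-05). DUSP1, a phosphatase that turns off MAP kinases, rose to 51.6 and 41.8 CPM in abl siCREB1, against 19.3 and 13.9 in siControl (1.42, SE 0.14, adjusted p = 1.6e-06). In LNCaP it rose to 41.0 and 44.3 CPM, against 31.5 and 28 (0.51, SE 0.13, adjusted p = 0.00646). CREM, a close relative of CREB1, rose in both lines, to 20 and 22 CPM in abl siCREB1 against 15.7 and 14.6 (0.46, adjusted p = 0.00175) and to 25.5 and 24.2 CPM in LNCaP against 16.4 and 16.7 (0.59, adjusted p = 0.000353).

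CCNA2, a cyclin of S phase and mitosis, fell in LNCaP to 4.34 and 4.01 CPM after siCREB1, against 16.7 and 16.5 in siControl (-1.99, SE 0.19, adjusted p = 5.62e-06). In abl it stood at 19.8 and 13.8 CPM after siCREB1, against 20.3 and 20.4 in siControl (-0.28, SE 0.17, adjusted p = 0.191). The libraries of abl siCREB1 differed much here: without the first one the edgeR change was -0.55 (adjusted p = 0.0216), and without the second it was -0.02 (adjusted p = 0.934). JUND, a subunit of AP-1, had 199 and 219 CPM in abl siCREB1 against 176 and 132 in siControl (0.42, SE 0.16, adjusted p = 0.0428), a call that the DESeq2 Wald test did not give (adjusted p = 0.141). Over the 12 fits that each leave out a library its edgeR adjusted p ranged from 0.00163 to 0.298, and the change was 0.67 without the first and 0.25 without the second abl siControl library. In LNCaP it rose to 183 and 187 CPM, against 135 and 82.9 (0.75, adjusted p = 0.00269), and the change was 1.18 without the first and 0.46 without the second LNCaP siControl library. VGF, a secreted neuropeptide precursor, stayed under 1 CPM in all libraries of siCREB1 and siControl, and its change was not called in either line (adjusted p = 0.52 in abl and 0.486 in LNCaP).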

How the data were processed

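The members, gene lists and tests were chosen with earlier results of these data known. The authors deposited peak positions (hg19) with a score each; per the submitters' processing notes the peaks came from Bowtie 1.0.0 and MACS 1.4.2. Input control, pooling, threshold and read depth are not given in the sources used here. Overlaps, distances and Wilson 95% intervals were computed in Python 3.11.15. The authors deposited raw read counts per gene, which came from TopHat2 2.0.8 and HTSeq 0.5.3p9 per the submitters' processing notes. Their annotation and strand setting are not given in the sources used here, and the kit in the labels' protocols marks no strand, which leaves overlapping and antisense genes uncertain. Columns headed SIC were taken for siControl; 8 repeats were identical and used once. Reads in no gene (54.8% to 58.3%) or in several (0.774% to 0.924%) were left out. Of 23230 genes 15550 passed filterByExpr, and all 12 libraries were fitted together (edgeR 4.0.16, R 4.3.3; TMM, quasi-likelihood F-test, 6 residual degrees of freedom). SE is the size of the change divided by the root of F. The scripts were tested on simulated data. The tables of gene positions used here are on another build than the peaks, so genes were not linked to peaks and the rule that names linked genes could not be applied. The genes named instead are CREB1, FOXA1 and the listed CREB1 targets with a full CRE. Alternatives were the overlap, score and distance rules, DESeq2 1.42.0 and its size factors, no filter, only the groups compared, the replicate block, a fold threshold and leaving out each library. The authors' deposited tables of log2 changes and p-values were not used.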

Additional observations from a re-analysis of the deposited data

Results flagged for a closer look

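For 3 of the named genes the effect of siCREB1 differed between the lines when the difference itself was tested (edgeR, effect in abl minus effect in LNCaP; 25.5% of all tested genes were called in that comparison). CCNA2 had a difference of 1.71 on the log2 scale (SE 0.26, adjusted p = 0.000329), with a change of -0.28 in abl and -1.99 in LNCaP. DUSP1 had a difference of 0.91 (SE 0.19, adjusted p = 0.00308), with 1.42 in abl and 0.51 in LNCaP. CREB1 itself had a difference of 0.47 (SE 0.13, adjusted p = 0.0208), with -0.81 in abl and -1.28 in LNCaP: its knockdown was less deep in abl, and the part of this in the other differences was not tested. Leaving out each library in turn gave 0.28 to 0.65 for CREB1, 1.41 to 1.94 for CCNA2 and 0.73 to 1.22 for DUSP1. The difference for CREB1 had adjusted p = 0.064 without the first abl siControl library, 0.0828 without the first abl siCREB1 library and 0.0759 without the second LNCaP siCREB1 library. No group has the 4 samples that a check for outlying samples needs.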

How the results depend on the processing

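Members numbered 10391 when 50% of the abl peak and 10341 when 50% of both peaks had to be shared, which is 37.6% and 37.4% of abl CREB1 peaks. They numbered 9386 with no FOXA1 peak allowed within 1 kb (34.0% of all and 50.9% of shared sites) and 5240 within 10 kb (19% and 28.4%). With FOXA1 peaks above the median score alone they numbered 13592 (49.2% and 73.7%). With peaks above the median score in both CREB1 lists there were 6678, or 48.3% of the abl peaks kept and 65.2% of shared sites. The definition of "without FOXA1" therefore sets the size of the class. The density ratio of FOXA1 at 1 to 2 kb was 1.72 to 1.79 under the overlap and CREB1 score alternatives. It was 1.61 for members chosen with FOXA1 peaks above the median score, but FOXA1 peaks of every score were still counted around them.

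Requiring a log2 change of at least 1 left 9 of the called CREB1 targets after siCREB1 in abl, 13 after siFOXA1 in abl, 3 after siCREB1 in LNCaP and 9 after siFOXA1 in LNCaP, and 8 for the line difference and 17 for abl against LNCaP; over all genes the counts were 1388, 2132, 636, 1668, 828 and 3699 in that order. Leaving out each library in turn gave 13 to 20 called targets after siCREB1 in LNCaP, and 4326 to 5839 called genes in all. DESeq2's size factors, its Wald test, no filter and only the groups compared kept these counts within 1.5 times. Deviations of same-numbered libraries correlated weakly (r of -0.047 to 0.231 over 15 pairs of groups, 11 of them positive and 3 over 0.1), and since not every pair was over 0.1 the numbers were not taken to pair the libraries; with the replicate block, 26 targets were called after siCREB1 in abl and 22 in LNCaP, and 8115 and 6124 genes in all.

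The link of peaks to genes with its windows, the motif content of peaks and the background by expression level were not run, since they need an annotation or sequence of hg19. Peak lists give no reads, so how the classes depend on depth was not tested, and a missing FOXA1 peak is not a measured absence of FOXA1.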
